A study of Mus musculus with 7 samples.

Results

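Dopamine reaches the medial prefrontal cortex (mPFC) from the midbrain and acts there through G protein-coupled receptors of 2 classes. The D1-like receptors, encoded by Drd1 and Drd5, couple to Gs and Golf, raise cyclic AMP and activate protein kinase A. The D2-like receptors, encoded by Drd2, Drd3 and Drd4, couple to Gi and Go, lower cyclic AMP and open GIRK potassium channels. DARPP-32, the product of Ppp1r1b, is a downstream switch: phosphorylated by protein kinase A it inhibits protein phosphatase 1. Cocaine blocks dopamine reuptake, and these genes encode the receptors for dopamine and a protein downstream of them.

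The set holds 6 listed genes, and a member had to match exactly a probe set with a single gene symbol. By that rule 5 of the 6 were measured, among 22180 genes in all. Drd1, Drd2, Drd3 and Drd4 each had 1 usable probe set and Drd5 had 2, of which the brighter was kept. Ppp1r1b had none, because probe set 17255949 is annotated to Ppp1r1b and to 1700003D09Rik, a long noncoding RNA gene whose RefSeq span overlaps that of Ppp1r1b by 7079 bases. No value is therefore given for DARPP-32 itself.

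The study pulled ribosomes with an anti-GFP antibody from mPFC of mice that carried both a ribosome tag (Ribosome TRAP) and an ArcCre transgene, and hybridised the bound RNA to 7 one-colour arrays. In the 4 arrays of the cocaine group (numbered 4, 5, 6 and 7 in the titles) mice had received 15 mg/kg cocaine for 2 days with tamoxifen. In the 3 arrays of the shock group (4, 5 and 6) they had received 20 shocks of 2 s at 0.5 mA for 2 days with tamoxifen. Both groups carried the same transgenes, and the labels used here give no age, strain or number of animals per array. Labelling depends on the Arc promoter being active in a cell. Each array therefore reports on cells labelled in this way and on any RNA that came along with the precipitate. Arc values on the arrays describe the collected RNA and are not a measure of that labelling. Whether each array stands for its own animal is not labelled. A p-value here therefore covers the variation among 7 arrays, and that variation may be technical.

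Values are log2 expression values as deposited. Arc itself averaged 9.51 ± 0.55 (SD, n = 4) with cocaine and 8.83 ± 0.91 (SD, n = 3) with shock, a difference of 0.67 (from 0.36 when shock array 6 was dropped to 1.195 when shock array 5 was). The excitatory marker Slc17a7, a vesicular glutamate transporter gene of cortical neurons, averaged 11.73 ± 0.04 and 11.65 ± 0.06. The defining markers of dopamine neurons, Th, Slc6a3 and Slc18a2, averaged 5.79, 5.79 and 4.89 over the 7 arrays, close to or under 5.46, the 95th percentile of mean levels among olfactory and vomeronasal receptor genes. Genes under 5.46 are called dim here. Cocaine array 6 stood apart from the rest, with a mean Euclidean distance of 37.2 to the other arrays against 27.5 to 29.6 for each other array, so results that rest on it are also given without it.

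Promoter sequence was taken from RefSeq (GRCm38.p6), which holds a window of 300 bases, from 250 before to 50 after an annotated start, for all 5 measured receptor genes. The stretches of Drd1 and Drd2 that lie before the first annotated start are shown because these were the receptors with the higher means in the cocaine group. They cover chr13:54055659-54055908 on the minus strand for Drd1 and chr9:49340153-49340359 on the plus strand for Drd2. Both read 5′ to 3′, and capitals mark GGGCGG, the GC box bound by Sp1-family factors, or its complement.
Drd1: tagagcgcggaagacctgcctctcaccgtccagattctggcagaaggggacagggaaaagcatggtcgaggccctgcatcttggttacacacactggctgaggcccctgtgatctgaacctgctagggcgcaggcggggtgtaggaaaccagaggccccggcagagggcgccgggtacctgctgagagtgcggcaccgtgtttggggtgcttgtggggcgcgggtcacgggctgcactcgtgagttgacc
Drd2: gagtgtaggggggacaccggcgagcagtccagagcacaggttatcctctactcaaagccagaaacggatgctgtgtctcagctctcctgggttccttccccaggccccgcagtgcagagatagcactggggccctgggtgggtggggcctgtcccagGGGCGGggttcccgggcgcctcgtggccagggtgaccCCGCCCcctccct

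Across the 300-base windows, the promoters of Drd1, Drd2 and Drd5 were rich in G and C. Their GC contents were 65.7%, 70.3% and 70.3%, against a median of 52.7% over 32841 windows. The Drd4 window had 58.0% and the Drd3 window, which starts inside the annotated gene, had 42.0%. GGGCGG on either strand occurred once in the Drd1 window, at 2 places in those of Drd2 and Drd5, at 3 places in that of Drd4 and nowhere in that of Drd3, and 35.7% of all windows held it. A second Drd1 window at a downstream start, chr13:54054731-54055030, had a GC content of 59.3% and 1 GGGCGG. Neither TATAAA (13.6% of all windows) nor the cyclic AMP response element TGACGTCA (1.79%) was found on either strand of any receptor window.

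Drd1, the main D1-like receptor of the forebrain, had the largest difference of the 5 receptors between the groups. Its probe set (17292677, Entrez 13488, gene at chr13:54051183-54055658) read 8.20, 8.21, 8.48 and 8.33 on cocaine arrays 4 to 7. On shock arrays 4 to 6 it read 8.08, 8.07 and 7.77. Every cocaine array lay above every shock array, with cocaine array 6 the highest and shock array 6 the lowest. The means were 8.30 ± 0.13 (SD, n = 4) and 7.98 ± 0.17 (SD, n = 3), a difference of 0.33 on the log2 scale (SE 0.10, 95% confidence interval 0.087 to 0.57), or 1.26-fold (1.06 to 1.49).

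By limma, Drd1 had an unadjusted p = 0.0151, the 114th smallest of 22180 genes, and an adjusted p = 0.938. It did not pass the adjusted threshold of 0.05, and neither did any other gene (0% of genes called, smallest adjusted p = 0.938 by limma). At an unadjusted p under 0.05, 1.53% of genes were higher and 1.57% lower in the cocaine group by limma. Groups that did not overlap occurred in 1.25% of genes in the higher direction and in 1.11% in the lower. With all 7 arrays, Drd1 was the 1 receptor of 5 that met both looser criteria, in the higher direction, and none met either in the lower. Without cocaine array 5, Drd2 also came under the looser threshold by limma (0.21, unadjusted p = 0.0173, adjusted p = 0.871). Without cocaine array 7, Drd3 did so by limma in the lower direction (-0.28, unadjusted p = 0.0198, adjusted p = 0.930). Among the 13769 genes that were not dim, 26 had a difference at least as high as that of Drd1, itself included, and 76 had a larger difference in either direction (338 of all 22180 genes). The Drd1 difference was 0.27 when cocaine array 6 was dropped, and dropping shock array 6 gave 0.23. More Drd1-expressing cells and more Drd1 RNA per cell cannot be told apart in such bulk samples, and the same holds for each gene below.

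Drd5, the other D1-like receptor gene (probe set 17437107, Entrez 13492, chr5:38319509-38322523), showed no separation. It read 6.29, 6.25, 6.25 and 6.22 with cocaine and 6.49, 6.20 and 6.25 with shock, so shock array 4 was high and the other 6 arrays lay within a narrow band. The means were 6.25 ± 0.03 (SD, n = 4) and 6.31 ± 0.16 (SD, n = 3), a difference of -0.064 (95% confidence interval -0.23 to 0.11; limma, adjusted p = 0.938). The difference was 0.024 without shock array 4, -0.12 without shock array 5, and -0.010 with the mean of both Drd5 probe sets. The second probe set, 17447642, was dim, with 5.34 on cocaine array 6 and 5.16 on each of the other 6 arrays.

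**Figure D1:**
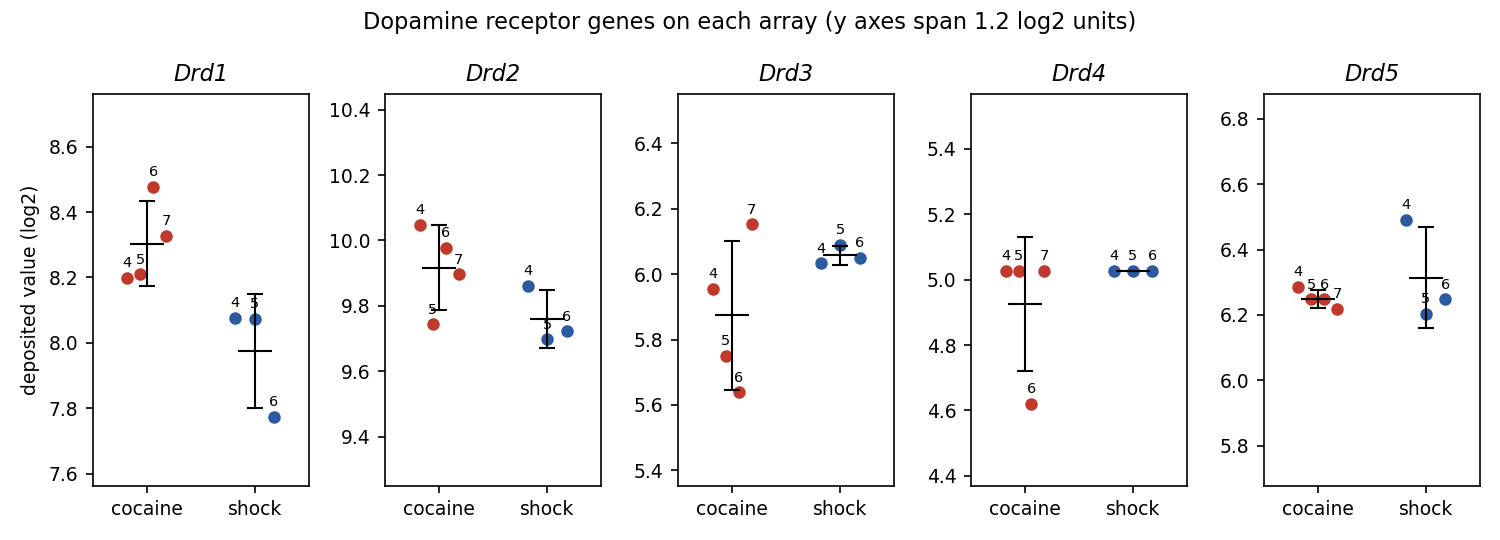
Deposited log2 values of the 5 measured dopamine receptor genes, one panel per gene, with red points for the cocaine arrays and blue points for the shock arrays, each numbered as in the titles. Black bars are the mean ± SD of each group (n = 4 and n = 3). The groups are separate for Drd1 alone, Drd4 differs on cocaine array 6 only, and shock array 4 lies above the rest for Drd5.

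Among the D2-like receptors, Drd2 (probe set 17517073, Entrez 13489, chr9:49340360-49408177) had a higher mean in the cocaine group but overlapping values. It read 10.05, 9.74, 9.98 and 9.90 with cocaine and 9.86, 9.70 and 9.72 with shock. Cocaine array 5 lay below shock array 4, and the remaining cocaine arrays lay above all shock arrays. The means were 9.92 ± 0.13 (SD, n = 4) and 9.76 ± 0.09 (SD, n = 3), a difference of 0.16 (SE 0.081, 95% confidence interval -0.036 to 0.35; limma, unadjusted p = 0.0958, adjusted p = 0.938).

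Drd3 (probe set 17325725, Entrez 13490, chr16:43754015-43825982), a high-affinity receptor best known from the limbic striatum, had a lower mean in the cocaine group. Its level was low, with a mean of 5.95 over the 7 arrays, not far above the dim level of 5.46. It read 5.96, 5.75, 5.64 and 6.15 with cocaine and 6.03, 6.09 and 6.05 with shock. The shock arrays lay close together, while cocaine arrays 4, 5 and 6 lay below them and cocaine array 7 above them. The difference was -0.18 (SE 0.12, 95% confidence interval -0.47 to 0.10; limma, adjusted p = 0.938). Dropping cocaine array 6 gave -0.10, and dropping cocaine array 7 gave -0.28.

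Drd4 (probe set 17484832, Entrez 13491, chr7:141291974-141296464), a receptor gene described in cortical neurons, was dim and had the fewest distinct values of the 5 receptor genes kept. It had the same value, 5.03, on 6 of the 7 arrays and 4.62 on cocaine array 6. The difference of -0.10 (95% confidence interval -0.36 to 0.15; limma, adjusted p = 0.938) was 0 without that array. An identical value on 6 or more arrays occurred in 1.80% of all genes. Equal values on at least 2 arrays were common: they occurred in 55.9% of all probe sets and in 64.0% of the genes that were not dim, Drd5, Pde10a and Scn4b among them. Their effect on the SDs and p-values was not tested.

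The question of unequal change between the main D1-like and D2-like receptor was put to the difference Drd1 minus Drd2 within each array, which removes anything that scales both genes alike. It was -1.61 ± 0.16 (SD, n = 4) with cocaine and -1.79 ± 0.16 (SD, n = 3) with shock, a change of 0.17. When an array was dropped the change ran from 0.091 (shock array 6) to 0.25 (shock array 5 or cocaine array 4). The exact two-sided permutation test over the 35 splits of the arrays gave p = 0.229, where 0.0286 is the smallest these splits can give. It was the 1 pair run of 3 planned, since the pairs with Ppp1r1b had no value. The Drd1 and Drd2 differences were therefore not shown to be unequal.

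Genes of the receptors' signalling were read from 6 lists with 91 measured genes, of which 88 were not dim. None passed the adjusted threshold (limma), and 57 had a higher and 34 a lower mean in the cocaine group, with a median difference of 0.013, against 50.9% higher and a median of 0.0016 over all genes. At an unadjusted p under 0.05 by limma there were 3 higher (Gng7, Rgs4 and Pde10a) and 1 lower (Gnai2). Without cocaine array 6, 64 means were higher, 26 lower and 1 equal, with 2 genes higher and 1 lower at the unadjusted threshold. Centring each array on its median gave 66 of 91 higher means, and 62.0% over all genes.

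On the Gs and Golf side, 9 of 12 measured genes had a higher mean (median 0.020), and all 12 after median centring (median 0.040). Over all genes the shares were 50.9% and 62.0%, and centring moved the median from 0.0016 to 0.022. Dropping cocaine array 7 gave a median of 0.0083, and dropping cocaine array 4 gave 0.042. Gng7 encodes the G protein gamma subunit that pairs with Golf in the striatum. It read 10.60, 10.47, 10.50 and 10.52 with cocaine and 10.45, 10.40 and 10.40 with shock, groups that did not overlap (difference 0.11, SE 0.041; limma, unadjusted p = 0.0341). Adcy5, the main adenylyl cyclase downstream of both receptor classes in striatum, differed by 0.075 (0.039 without cocaine array 6 and 0.12 without cocaine array 5). Ric8b, a chaperone of Golf, differed by 0.050 (0.028 without cocaine array 7 and 0.093 without shock array 4).

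On the Gi and Go side, 11 of 21 measured genes had a higher mean (median 0.0046), and the median was -0.024 without shock array 6 and 0.028 without cocaine array 6. Gnai2, a Gi alpha subunit gene, read 9.94, 9.94, 9.85 and 9.87 with cocaine and 10.07, 9.97 and 10.05 with shock. Its groups did not overlap in the lower direction (difference -0.13, SE 0.043; limma, unadjusted p = 0.0220). Rgs4, a GTPase-activating protein that shortens Gi and Gq signals, was separate in the higher direction at 10.85, 10.94, 10.93 and 10.87 against 10.79, 10.80 and 10.75 (difference 0.11, SE 0.037; limma, unadjusted p = 0.0178). Rgs9, whose striatal form acts on D2 receptor signalling, differed by 0.12 with overlapping groups, and by 0.076 without cocaine array 6.

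The enzymes that set the phosphorylation of DARPP-32, with its target phosphatase, showed small differences. Of 22 measured genes 15 had a higher mean, with a median of 0.015 (0.0066 without shock array 5) and a range of -0.069 to 0.068. None reached the unadjusted threshold in limma. The values nearest to that were 0.059 for Ppp1cc, a catalytic subunit gene of protein phosphatase 1, 0.068 for Cdk5r1, the activator of Cdk5, and -0.069 for Prkar2a, a regulatory subunit gene of protein kinase A. The Ppp1cc groups did not overlap, with 7.13 the lowest cocaine value and 7.12 the highest shock value. Such separation in the higher direction occurred in 1.25% of all genes. When an array was left out, Ppp1cc ranged from 0.035 (shock 5) to 0.073 (shock 6), Cdk5r1 from 0.046 (cocaine 7) to 0.10 (shock 5) and Prkar2a from -0.097 (cocaine 4) to -0.025 (cocaine 6). Among 12 other phosphatase regulators 7 had a higher mean (median 0.014, with 0.00037 when cocaine array 7 was dropped and 0.032 when shock array 5 was). Arpp19, a relative of the cAMP-regulated phosphoproteins that inhibits protein phosphatase 2A, differed by 0.14 (0.085 without cocaine array 6). Ppp1r9a, encoding neurabin, differed by -0.10 (from -0.16 when cocaine array 4 was dropped to -0.050 when shock array 4 was), and Ppp1r1a, encoding inhibitor-1, the closest relative of DARPP-32, by 0.051 (from 0.016 when shock array 6 was dropped to 0.079 when shock array 5 was).

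**Figure D2:**
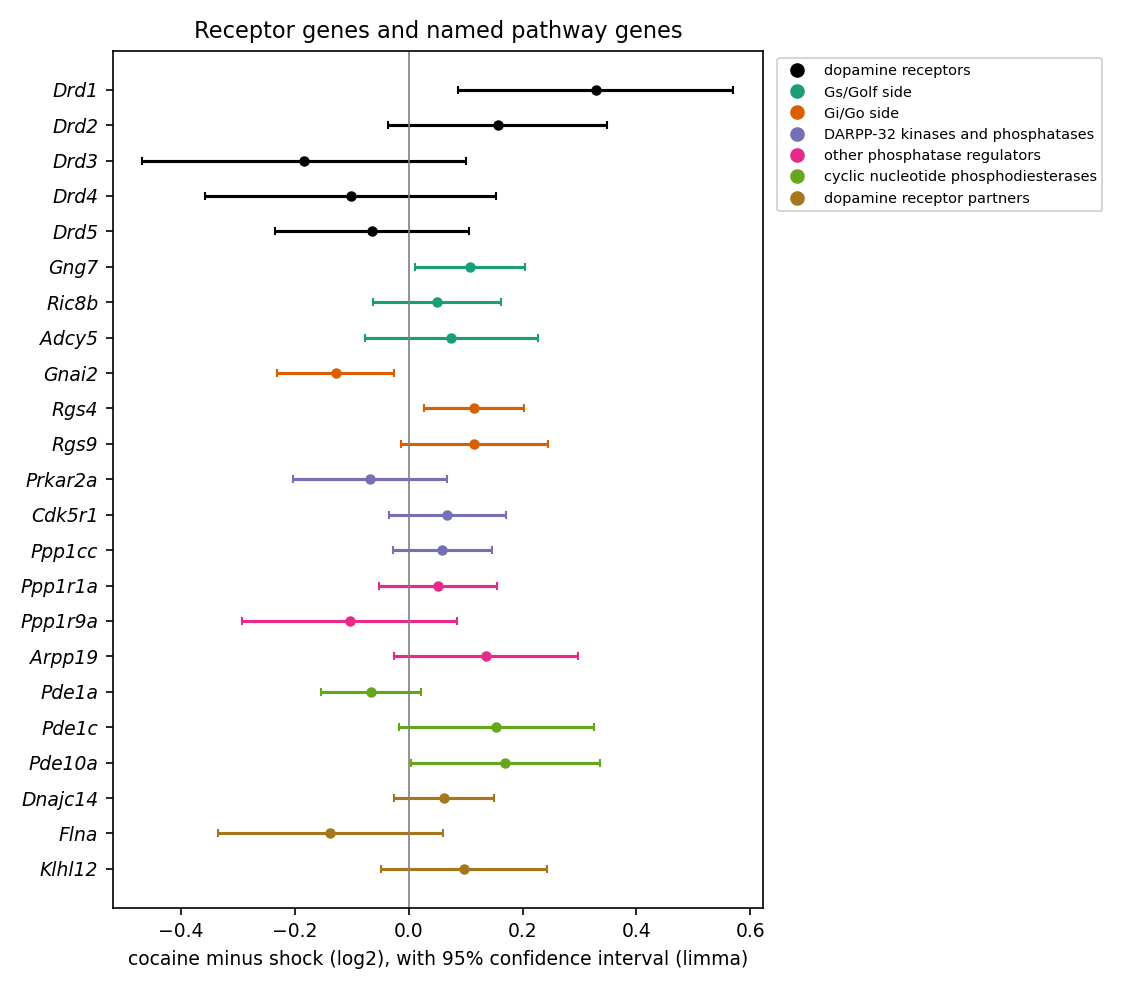
Cocaine minus shock on the log2 scale for the 5 receptor genes and the named signalling genes, with 95% confidence intervals from limma (7 arrays) and colours by list. The intervals of Drd1, Gng7, Rgs4 and Pde10a lie above 0, that of Gnai2 lies below 0, and the rest include 0.

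Phosphodiesterases, which end the cyclic nucleotide signal, had a higher mean in 11 of 16 genes (median 0.033, and 0.0078 without shock array 6). Pde10a, the phosphodiesterase of striatal projection neurons, read 9.44, 9.44, 9.64 and 9.51 with cocaine and 9.39, 9.39 and 9.22 with shock. The groups did not overlap (difference 0.17, SE 0.070; limma, unadjusted p = 0.0461). Without cocaine array 6, where Pde10a was highest, no phosphodiesterase was at an unadjusted p under 0.05 by limma. None was after quantile normalization either, and 2 were after median centring. Pde1c differed by 0.15 and Pde1a, a calcium-activated relative, by -0.066 (-0.041 without shock array 6). Receptor partners had a higher mean in 4 of 8 genes (median 0.0019, -0.00091 after quantile normalization, -0.012 without shock array 4 and 0.042 without shock array 5). Dnajc14, a chaperone of D1 receptor export, differed by 0.062 (0.040 without shock array 4), the cytoskeletal linker gene Flna by -0.14 (-0.083 without shock array 6), and Klhl12, a ubiquitin ligase adaptor of the D4 receptor, by 0.097 (0.028 without shock array 4).

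The genes whose values most resembled those of Drd1 over the 7 arrays, by Pearson correlation among 13768 genes that were not dim, were Pde10a (r = 0.987, Spearman rho = 0.955), the mTOR inhibitor gene Deptor (r = 0.977, rho = 0.964) and the sodium channel subunit gene Scn4b (r = 0.9754, rho = 0.937). Without cocaine array 6 these r were 0.995, 0.962 and 0.960. For Drd2 they were Cacng3, encoding an AMPA receptor auxiliary subunit (r = 0.970, rho = 0.929), Cd4 (r = 0.965, rho = 0.929) and Mettl22 (r = 0.962, rho = 1). For Drd3 they were Foxk1, the ghrelin receptor gene Ghsr and Gpr137b-ps (r = 0.987, 0.976 and 0.973, with rho = 0.893, 0.991 and 0.815). For Drd5 they were Fam171b, Mpv17l2 and Crabp2 (r = 0.987, 0.985 and 0.985, with rho = 0.972, 0.889 and 0.941). These are the highest of many correlations over 7 arrays that share groups and processing, and 28 to 137 genes exceeded r = 0.9 for each of these 4 receptors. Drd1 and Drd2 correlated with each other less closely (r = 0.629, rho = 0.679).

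Markers of striatal projection neurons, a neighbouring cell type rich in Drd1 and Drd2, were read beside the Drd1 result. All 20 measured markers were above the dim level, and 5 of them also stood in a signalling list. Of the 20, 16 had a higher mean in the cocaine group (median 0.10), against 50.9% higher over all genes. The 4 with a lower mean, named after their values were seen, were Gpr149 (-0.13), Six3 (-0.045), Isl1 (-0.021) and Gpr6 (-0.017). At an unadjusted p under 0.05 by limma there were 3 higher, against 1.53% of all genes. They were Rarb (0.23), Scn4b (0.29, or 0.19 without shock array 6) and Pde10a, and no marker passed the adjusted threshold. The mean log2 level over the list ran from 8.59 to 8.76 on the cocaine arrays and from 8.55 to 8.58 on the shock arrays. The score, the mean deviation of the 20 markers from their own averages, was 0.026, -0.025, 0.14 and -0.0067 on cocaine arrays 4 to 7 and -0.029, -0.044 and -0.066 on shock arrays 4 to 6. Cocaine array 6 thus held the highest value of both Drd1 and the score, and shock array 6 the lowest of both. Between these the order differed. Cocaine array 7 had Drd1 at 8.33 with a score of -0.0067, and cocaine array 4 had 8.20 with 0.026. Without cocaine array 6 the list counted 14 higher of 20 with a median of 0.030, and 1 was at an unadjusted p under 0.05 by limma. That threshold was met by 585 of all genes without this array, in either direction. The Drd1 difference was 0.27 without it. Pde10a and Scn4b, named above for their likeness to Drd1, are both in the striatal list. The part of striatal RNA in the Drd1 difference was not tested.

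**Figure D3:**
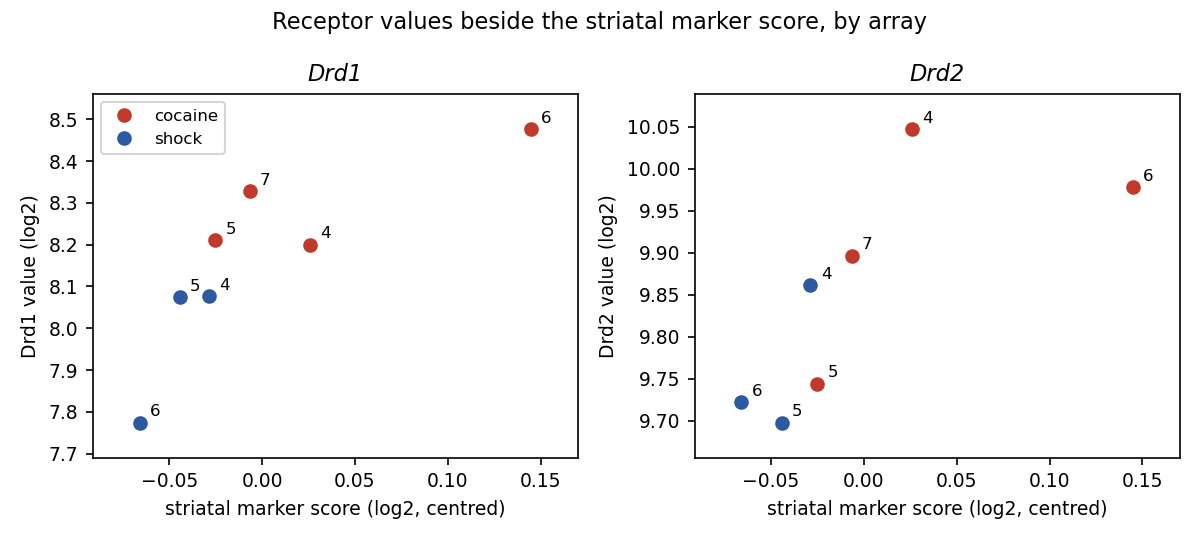
Log2 values of Drd1 (left) and Drd2 (right) against the striatal marker score (mean centred log2 value of 20 markers), with 1 point per array, red for cocaine and blue for shock, numbered as in the titles. Shock array 6 is lowest and cocaine array 6 highest on both axes of the Drd1 panel, and cocaine array 4 has the highest Drd2 value.

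Markers of cortical neurons, some of which also carry dopamine receptors, were read in the same way. Deep-layer markers had a higher mean in 6 of 14 genes (median -0.0033, 0.030 without shock array 6, and 9 of 14 after median centring), with Crym at -0.091 (-0.041 without shock array 6), Syt6 at 0.040 and Cplx3, a marker of the deepest neurons, at -0.092 (-0.013 without cocaine array 6, -0.15 without cocaine array 7). Inhibitory neuron markers had a lower mean in 11 of 15 genes (median -0.080, -0.079 without cocaine array 6 and -0.044 without cocaine array 4), with the GABA-synthesising enzyme gene Gad1 at -0.035 (0.048 without cocaine array 4, -0.090 without cocaine array 5). Excitatory markers had a higher mean in 5 of 8 (median 0.011) and upper-layer markers in 3 of 10 (median -0.026), counts that were 4 of 8 after quantile normalization and 5 of 10 after median centring. The excitatory median was -0.0066 and the upper-layer median 0.027 without shock array 5. Over all genes 50.9% of means were higher, and 62.0% after median centring.

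Among non-neuronal lists, all 9 astrocyte and all 8 vascular markers had a lower mean in the cocaine group (medians -0.14 and -0.28), as they did without cocaine array 6. At an unadjusted p under 0.05 by limma, 3 vascular markers and 1 oligodendrocyte marker were lower, against 1.57% of all genes. The vascular markers were the endothelial transporter gene Slco1a4 (-0.48, SE 0.10, unadjusted p = 0.00215, the 14th smallest of all genes), the VEGF receptor gene Flt1 (-0.30) and the tight junction gene Cldn5 (-0.29). The oligodendrocyte marker was Olig2 (-0.16, unadjusted p = 0.0445). All were named after their values were seen. The groups did not overlap for Slco1a4, Cldn5 and Olig2 (1.11% of all genes in the lower direction). Neither these nor any astrocyte marker passed the adjusted threshold. After quantile normalization, and also after median centring, 2 vascular and 0 oligodendrocyte markers were lower at the unadjusted threshold. Without cocaine array 6 the counts were 3 vascular and 0 oligodendrocyte markers, with 1 astrocyte and 1 microglia marker lower as well. Over all genes, 585 met the threshold in either direction without that array. The mean vascular level ran from 6.93 to 7.31 on the cocaine arrays and from 7.33 to 7.58 on the shock arrays. Shock array 6, lowest for Drd1, had the highest vascular level. The lowest was on cocaine array 7, not on cocaine array 6, which was highest for Drd1. The astrocyte median was -0.23 without shock array 4. Microglia markers had a median of -0.066 and oligodendrocyte markers one of 0.078, and without shock array 6 these were -0.028 and 0.020. Dopamine neuron markers, 4 of 15 of them dim, had a median of 0.023 (-0.0048 without shock array 4), with Th at 0.029, Slc6a3 at 0.032 and Slc18a2 at -0.050. These values depended on single arrays. Th was -0.0035 without shock array 5, Slc6a3 was 0.0083 without cocaine array 5, and Slc18a2 ran from -0.19 without cocaine array 6 to 0.046 without cocaine array 5. The part of these other cells in the receptor values was not tested.

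**Figure D4:**
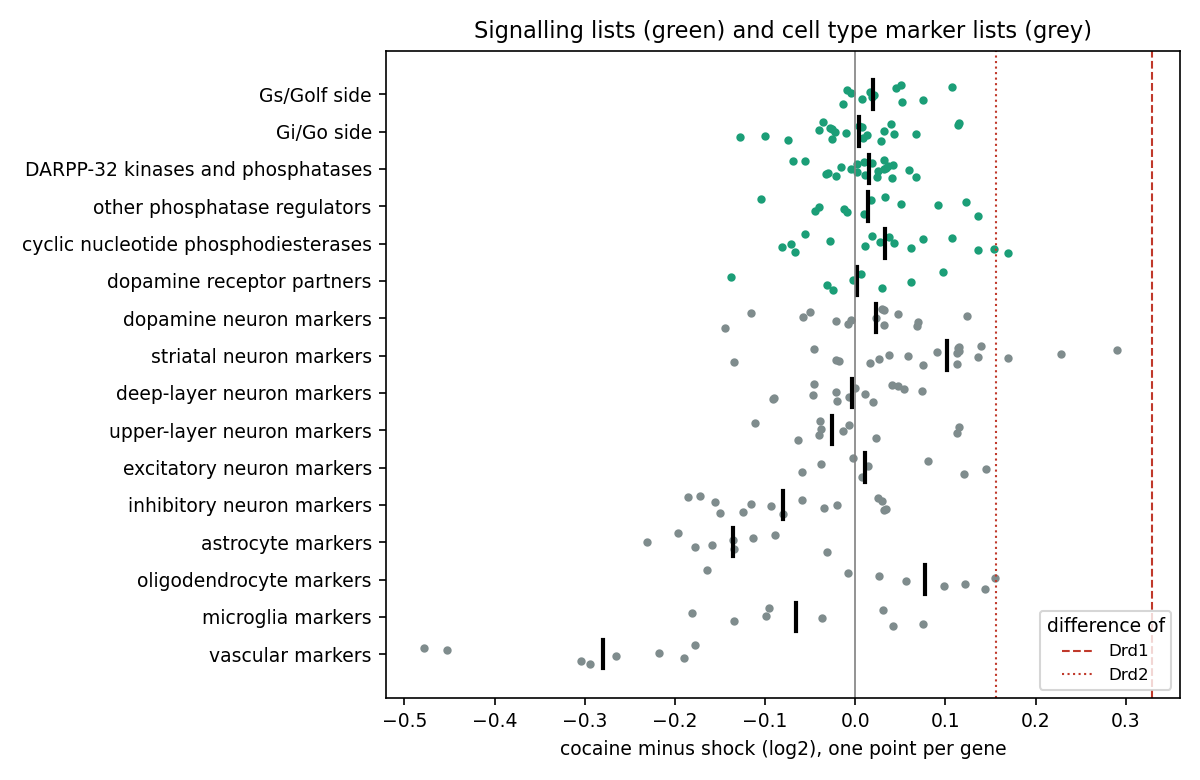
Cocaine minus shock on the log2 scale for each measured gene of the 6 signalling lists (green) and the 10 cell type marker lists (grey), with a black bar at each list's median. Dashed and dotted red lines mark Drd1 (0.33) and Drd2 (0.16). No listed gene is higher by more than Drd1, the vascular genes Slco1a4 (-0.48) and Rgs5 (-0.45) differ by more in the lower direction, and the vascular and astrocyte points all lie below 0.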

How the data were processed

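The authors deposited 1 value for each of 41345 probe sets on each of 7 arrays. These deposited values were taken as log2 expression, a scale read from their range of 1.12 to 13.44. Per the submitters' processing notes, Transcriptome Analysis Console was used. Summarization, normalization and filtering: not given in the sources used here. Array medians of 5.44 to 5.47 were nearly equal, so each difference is read against the bulk of the array. Of the probe sets, 23521 had 1 gene symbol, 1814 had several and 16010 were unlisted. For each gene the single-symbol probe set with the highest mean was kept (22180 genes). Genome positions come from RefSeq by Entrez identifier, not from the array. Groups were compared by limma 3.58.1 (R 4.3.3), which fitted each gene without covariates and moderated the variances (eBayes, two-sided tests), with Benjamini-Hochberg adjustment over all 22180 genes at 0.05. Lists are described by counts and medians. Signalling genes named were the 3 of smallest unadjusted p per list that were not dim, as for striatal and deep-layer markers; the 6 members, Arc, Slc17a7, Gad1, Th, Slc6a3 and Slc18a2 were always named, and for each member that was not dim the 3 best-correlated genes. Members and lists were chosen with earlier results of these data known. Scripts were tested on simulated data. Arrays have no read depth, and their number limits precision. Title numbers shared between groups were checked for pairing (correlations of same-numbered deviations of 0.13, 0.064 and 0.16); the numbers were not treated as pairs. Alternatives covered each array, probe set averaging, 2 scalings, dim genes, moderation, array weights and the replicate block.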

Additional observations from a re-analysis of the deposited data

Results flagged for a closer look

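In the cocaine group of 4 arrays, the following measures had 1 array set apart, as the gap to the nearest array divided by the range. For Drd4 cocaine array 6 was the lowest (1) and for Ppp1r1a it was the highest (1), with 3 equal values on the other arrays in both. The Gi and Go list score was lowest on cocaine array 6 (0.838), and its mean distance to the other arrays was highest (0.9746). Th was lowest on cocaine array 4 (1, again with 3 equal values). Cocaine array 7 was highest for Ric8b (0.863), Cdk5r1 (0.914) and Klhl12 (0.885), and cocaine array 5 for Ppp1cc (0.859). These were 9 of 52 measures past Dixon's 95% limit, where chance passes about 5% of measures without ties. The shock group of 3 arrays was not tested this way.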

How the results depend on the processing

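No gene passed the adjusted threshold under any alternative run. Of 83 alternative values for the 5 receptors and the Drd1 minus Drd2 change, 81 kept their sign and their side of the test's threshold (adjusted p for the receptors). No receptor passed that threshold in any run, so for the receptors this count reflects the sign alone. Part of it was fixed in advance. Leaving out dim genes and changing the moderation leave a difference as it was, and probe set averaging can change Drd5 only. The replicate block repeats the differences without cocaine array 7. For the pair, dropping an array leaves too few splits for the permutation p to fall under 0.05. Unadjusted limma p moved more, for Drd2 from 0.0958 to 0.0173 without cocaine array 5 and for Drd3 from 0.170 to 0.0198 without cocaine array 7. The Drd4 difference of -0.10 ranged from -0.14 to 0 when an array was left out (0 without cocaine array 6), and the Drd5 difference of -0.064 from -0.12 to 0.024 (0.024 without shock array 4). The Drd1 difference ranged from 0.23 (without shock array 6) to 0.38 (without shock array 4), and its unadjusted limma p from 0.0193 to 0.0436. The 688 genes at an unadjusted p under 0.05 became 450 with dim genes left out, a smaller set of genes, and 419 without moderation; the cause of the latter was not tested. Median centring split them into 544 higher and 217 lower, against 339 and 349. With the title number as a replicate block, 915 genes had an unadjusted p under 0.05, and Drd1 differed by 0.32 (limma, unadjusted p = 0.0997, adjusted p = 0.871) and Drd3 by -0.28 (limma, unadjusted p = 0.0339, adjusted p = 0.871). Number 7 occurs in the cocaine group only, so cocaine array 7 adds nothing to the differences of this fit. They equal those with cocaine array 7 dropped (0.32 and -0.28) and are not a separate result. The tests do differ: the unadjusted limma p of Drd1 was 0.0383 with that array dropped and 0.0997 with the block. With the block Drd1 was thus not under 0.05. All 6 arrays with a shared number correlated best with the other group's array of that number, a hint from the data and not from the design. Of 176 alternative list medians, 9 moved by more than the spread between arrays. The 2 planned pairs with Ppp1r1b were not run, since it had no value. Counts without cocaine array 6 were chosen after seeing the data. Arrays give no depth, and the dim Drd4 signal limits any reading of that gene. The low Drd3 signal limits the reading of Drd3 as well.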

Other observations

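Probe set 17255949, annotated to both Ppp1r1b and 1700003D09Rik, was outside the rule, and its values were chosen for display after they were seen. It read 9.25, 9.21, 9.51 and 9.26 on cocaine arrays 4 to 7 and 9.15, 9.25 and 9.07 on shock arrays 4 to 6. The means were 9.31 ± 0.14 (SD, n = 4) and 9.15 ± 0.09 (SD, n = 3), a difference of 0.15 that was not tested. Cocaine array 6 was the highest and shock array 6 the lowest, as for Drd1, and cocaine array 5 lay below shock array 5. Which of the 2 genes gave this signal cannot be read from the probe set.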
